A study of Homo sapiens with 48 samples.

Results

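The genes described here encode the proteins of the cytosolic ribosome. They were chosen by gene name: RPL or RPS followed by a number, with an A or X at the end where there is one, together with RPLP0, RPLP1, RPLP2 and RPSA. The rule found 77 of the 19923 protein-coding gene names counted, 46 of the large subunit (RPL and RPLP names) and 31 of the small subunit (RPS names and RPSA). They were followed in Kelly and NGP, neuroblastoma cell lines labelled as wild type and MYCN-amplified. Each line was kept for 3 or 6 days in 8 µM STM2457, a small molecule that inhibits the m6A RNA methyltransferase METTL3, or in its solvent DMSO. Both treatments were followed by 0, 3 or 6 h of actinomycin D at 10 µg/ml, so that every 3 h and 6 h group, DMSO included, also carries the transcription block. The 24 groups had 2 poly(A) RNA-seq libraries each, and the labels do not say whether the 2 came from separate cultures, so p-values measure only the spread between such libraries. Each line is 1 established line in culture, and no METTL3 knockout enters these comparisons.

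A ribosome takes 1 copy of nearly every one of these proteins, so their genes are expressed at high and balanced levels in dividing cells. Most of their mRNAs are short, abundant and long-lived, and begin with a 5′ terminal oligopyrimidine (TOP) tract, a C followed by an unbroken run of C and T at the cap. The tract is bound by the repressor LARP1 and ties the translation of these mRNAs to mTOR signalling. Some of the proteins also act off the ribosome: RPL5 and RPL11 bind MDM2 together with 5S rRNA when ribosome assembly is disturbed.

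The start of transcription shows what these mRNAs share beyond their names. RefSeq promoter windows on GRCh38.p14 were found for 62 of the 77 genes. A C followed by at least 4 further C or T bases, on the strand of the gene and beginning at or within 5 bases of an annotated start, was present at 53 of the 62 (85.5%). The share was 86.8% in the large subunit and 83.3% in the small subunit, against 25.2% of the 27305 genes in the promoter table. Mitochondrial ribosomal protein genes, which serve the second ribosome of the cell, carried such a run in 16 of 69 cases (23.2%). The run was counted from a C within 5 bases of the start, whether or not a pyrimidine came before that C. The windows below are shown because these genes recur in the results. Each runs from 10 bases before the RefSeq start to 20 bases from it, 5′ to 3′ on the strand of the gene. The counted run is in capitals, and pyrimidines that adjoin it upstream stay in lower case, as in RPS7, RPL7A and RPS10. A run of letters is a description of the annotated start and not a measured cap site.
RPS7 (chr2:3575250-3575279, plus strand): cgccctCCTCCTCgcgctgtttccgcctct
RPL24 (chr3:101686699-101686728, minus strand): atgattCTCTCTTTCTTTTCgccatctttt
RPL7A (chr9:133348208-133348237, plus strand): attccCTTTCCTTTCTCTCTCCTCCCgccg
RPS18 (chr6:33272065-33272094, plus strand): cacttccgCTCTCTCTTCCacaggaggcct
RPL41 (chr12:56116623-56116652, plus strand): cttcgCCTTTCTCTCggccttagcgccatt
RPL36A (chrX:101391001-101391030, plus strand): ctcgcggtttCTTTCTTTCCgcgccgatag
RPS10 (chr6:34426050-34426079, minus strand): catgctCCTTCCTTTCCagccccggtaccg
RPS15 (chr19:1438386-1438415, plus strand): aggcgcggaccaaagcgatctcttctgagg
Members that depart from the others below are found on both sides: RPL41, RPL36A and RPS10 have the run, as RPS7 and RPL24 do, while RPL17 and RPS29 have none in their windows. Of the members that rose most after actinomycin D, RPS15 has none, and RPL36 and RPLP1 have one.

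The libraries held 13807701 to 19774227 fragments in genes in Kelly and 11139550 to 21942238 in NGP. ERCC spike-in RNAs took 0.290 to 0.671% of the fragments in Kelly and 0.266 to 0.594% in NGP. All 10 neuroblastoma markers checked had fragments in every library (MYCN 6299 to 135985), though TH had only 1 to 49 in NGP. Of the markers of other cell types, the blood marker PTPRC had 0 to 47 fragments and the epithelial marker EPCAM 0 to 103. The mesenchymal markers COL1A1 (59 to 4155) and VIM (145 to 3128) had fragments in every library. The members took 4.68 to 9.59% of the fragments in a Kelly library and 4.20 to 9.55% in an NGP library, the large subunit holding 63.8 to 66.7% of them. All 77 passed the filter on low counts in both lines, and 74 had at least 100 fragments in every library.

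Levels were compared between genes in DMSO at 0 h, as CPM (counts scaled to a common library total) per kb of the annotated exons. RPL13A stood first in both lines, at 876 ± 125 CPM per kb in Kelly and 1111 ± 209 in NGP (SD, n = 4, the 3-day and 6-day libraries). RPS2, at 802 ± 22.6, was second in Kelly, within the spread of RPL13A, and RPL19, at 979 ± 79.4, was second in NGP, again within that spread. RPS29, RPL36A, RPL17 and RPS10 were among the 5 lowest in both orders. RPS10, a protein of the small subunit's head, had 4.42 ± 2.10 CPM per kb in Kelly and 2.25 ± 0.786 in NGP. Exon lengths here join all annotated isoforms and exceed the length of most of these mRNAs, so the order is coarse. Of the exon bases of RPS10, 40.3% are shared with RPS10-NUDT3, a read-through gene on the same strand. The figure is 24.8% for RPL17 with RPL17-C18orf32. It is 22.5% for RPL36A with its neighbours, most of it (14.1%) with GLA on the opposite strand. Such overlap is not limited to the lowest members: it is 19.5% for RPL36, which had at least 3830 fragments in every library. Ribosomal protein genes also have many processed pseudogenes with near-identical sequence, and how such reads were counted is not given in the sources used here.

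The first comparison asked what STM2457 did to these mRNAs before transcription was blocked. Their share of all fragments was lower with STM2457 in both lines and at both durations. In 3-day Kelly cells it was 5.32 ± 0.0750% in DMSO and 4.70 ± 0.0375% in STM2457 (SD, n = 2), and at 6 days 6.40 ± 0.114% and 5.14 ± 0.0983%. In NGP it was 4.84 ± 0.0707% and 4.20 ± 0.00707% at 3 days, and 6.41 ± 0.220% and 5.38 ± 0.0219% at 6 days. In all 12 matched pairs of groups, those with actinomycin D included, both STM2457 libraries lay below both DMSO libraries. Counted per ERCC fragment, the direction turned in 3-day Kelly cells, where STM2457 had 15.95 ± 0.156 member fragments per ERCC fragment and DMSO 13.9 ± 0.184. By this measure STM2457 stayed lower in 6-day Kelly cells (14.1 ± 0.361 against 20.6 ± 0.0424), in 3-day NGP cells (15.5 ± 0.474 against 16.8 ± 0.0990) and in 6-day NGP cells (15.96 ± 0.0849 against 19.6 ± 0.488). In bulk RNA, fewer cells of a type and less RNA per cell cannot be told apart.

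**Figure D1:**
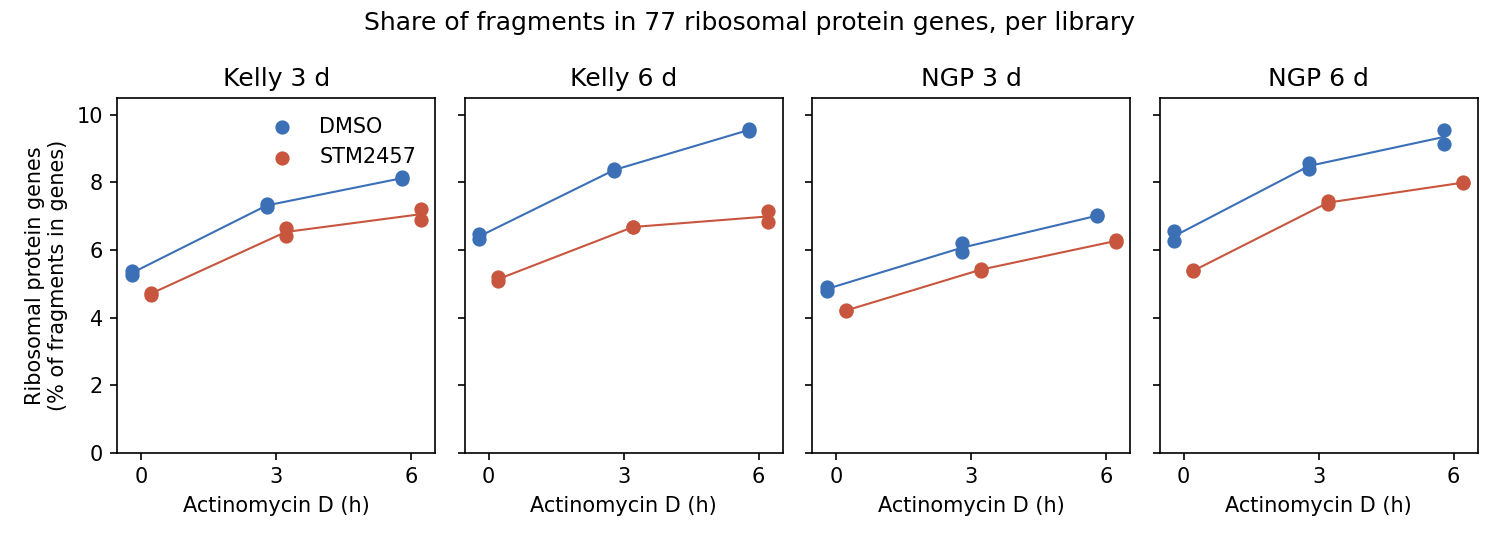
Share of the fragments in genes that fell in the 77 ribosomal protein genes (y axis, percent) against hours of actinomycin D (x axis), 1 panel per line and duration; points are libraries and lines join the means of 2. In every panel the STM2457 libraries lie below the DMSO libraries of the same hour, and both rise with actinomycin D.

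Gene by gene, the quasi-likelihood test of edgeR on TMM-scaled counts, adjusted by Benjamini-Hochberg over all genes and read at a threshold of 0.05, gave one-sided counts before actinomycin D. With this scaling the bulk of genes defines no change, and each value is relative to it. In 3-day Kelly cells, 31 of the 77 members were lower and 0 higher, beside 1.1% of all 16759 tested genes lower and 0.579% higher. At 6 days 48 were lower and 0 higher, beside 1.26% and 2.7% of all genes. In NGP, 43 were lower and 0 higher at 3 days (all 14661 genes: 2.45% lower, 1.25% higher), and 52 lower and 0 higher at 6 days (3.55% and 4.45%). Higher members with an unadjusted p under 0.05 by edgeR numbered 2, 0, 1 and 0, and DESeq2 called 1, 0, 1 and 0 higher. The median log2 change over the members was −0.19 in 3-day Kelly cells, −0.29 in 6-day Kelly cells, −0.23 in 3-day NGP cells and −0.25 in 6-day NGP cells, where the median of all genes was between 0.00 and 0.02. The changes were small for single genes and shared by most: 69, 74, 73 and 76 of the 77 members lay below 0 in the 4 comparisons, and 68 did so in all 4.

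The sign of the median depended on the scaling in 1 of the 4 comparisons. With ERCC scaling the member median in 3-day Kelly cells was 0.21, with 43 members higher and 1 lower, while all genes stood at 0.38. It was −0.54 in 6-day Kelly cells (all genes −0.21), −0.13 in 3-day NGP cells (all genes 0.10) and −0.29 in 6-day NGP cells (all genes −0.02). The distance of the member median from that of all genes was −0.17, −0.33, −0.23 and −0.27 in that order. With TMM scaling it was −0.19, −0.29, −0.23 and −0.27. Rescaling shifts all genes of a comparison by nearly the same amount, so this distance is nearly kept by construction and is no separate test. Of the 77 members, 66, 75, 73 and 76 lay below the median of all genes under ERCC scaling. The count of members past the threshold in 3-day Kelly cells fell whichever of the 4 libraries compared was left out. The member median then ran from −0.19 to −0.16. In 3-day NGP cells the count also fell without any 1 library, and the median ran from −0.27 to −0.19.

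**Figure D2:**
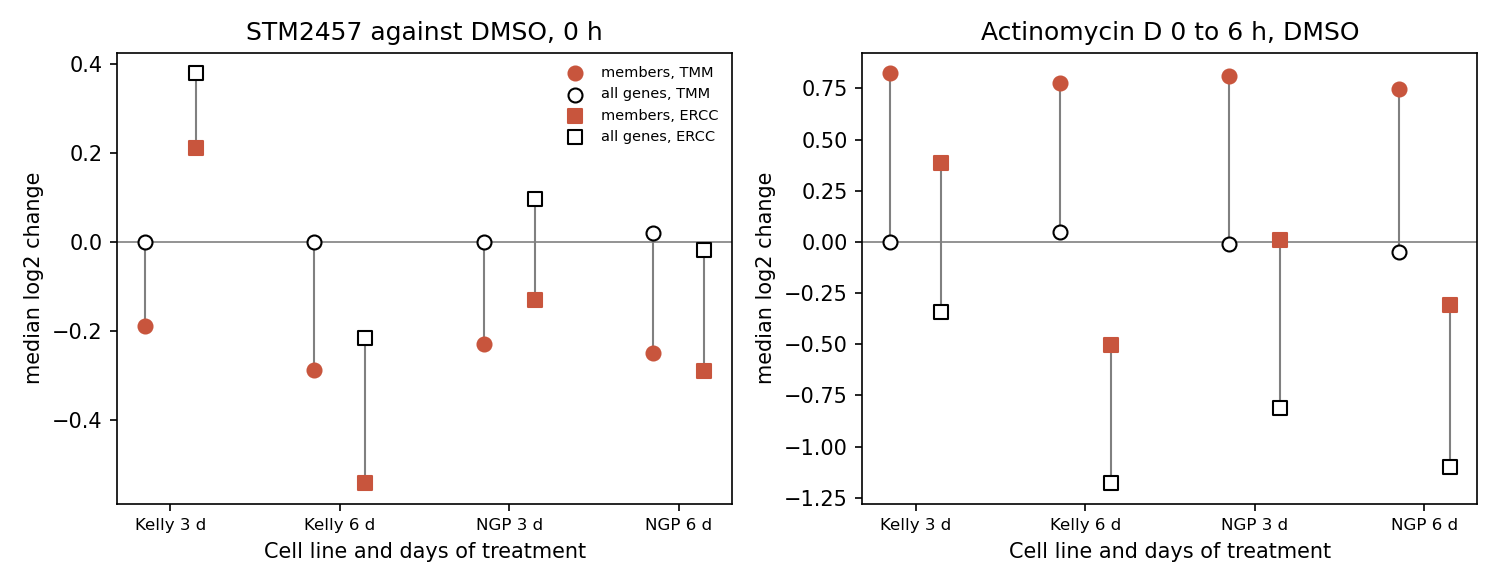
Median log2 change (y axis) of the 77 members (filled) and of all genes tested (open) under TMM scaling (circles) and ERCC scaling (squares), for STM2457 against DMSO at 0 h (left) and for 6 h against 0 h of actinomycin D in DMSO (right), per line and duration (x axis). Rescaling moves both medians together by construction. Under either scaling the members lie below all genes on the left and above them on the right.

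Both subunits took part. The large subunit had 23, 32, 28 and 36 of 46 members lower in Kelly cells (3 days, then 6) and in NGP cells (likewise), with medians of −0.21, −0.31, −0.23 and −0.27. The small subunit had 8, 16, 15 and 16 of 31 lower, with medians of −0.18, −0.26, −0.25 and −0.24. The difference between the subunits was not tested.

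In all 4 comparisons 21 members were lower past the threshold, 16 of the large subunit and 5 of the small. No more than 185 of all genes can meet this rule, the number lower in 3-day Kelly cells (1.1% of 16759). How many of all genes did meet it is not given here. The 21 members are listed in part below. Among them were RPL3, RPL5, RPL6, RPL7, RPL7A, RPL8, RPL11, RPL12, RPL19, RPL23, RPL23A, RPL24, RPL27, RPL32, RPL35A, RPS3, RPS4X, RPS7 and RPS18. A further 18 were lower in 3 comparisons, 12 in 2, 12 in 1 and 14 in none. When each of the libraries compared was left out in turn, 7 of the 21 kept every call in 16 refits: RPL3, RPL5, RPL7A, RPL11, RPL19, RPS7 and RPS18. In 3-day Kelly cells, the direction of these 21 was the reverse under ERCC scaling except for RPL24 and RPS7; their values there are given with the other alternatives.

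RPS7, a small-subunit protein needed for rRNA maturation, was among the members with the lowest mean change. At 3 days in Kelly cells it had 653 and 745 CPM in the DMSO libraries and 505 and 517 in the STM2457 libraries; at 6 days it had 835 and 790 against 655 and 607. In 3-day NGP cells it had 961 and 833 CPM against 645 and 614, and at 6 days 1110 and 1164 against 843 and 888. Both STM2457 libraries were the lower ones in each of the 4 comparisons, with no overlap. The log2 changes were −0.45 ± 0.061 (SE; adjusted p = 4.94e-09), −0.36 ± 0.061 (1.82e-06), −0.51 ± 0.052 (7.88e-12) and −0.39 ± 0.052 (6.69e-09) by the quasi-likelihood test of edgeR, Benjamini-Hochberg adjusted.

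RPL5, the large-subunit protein that carries 5S rRNA, is among the more abundant members. Its level in 3-day Kelly cells was 1573 and 1600 CPM in DMSO and 1285 and 1311 in STM2457, and at 6 days 2208 and 2110 against 1550 and 1523. In NGP it had 1494 and 1458 CPM against 1283 and 1235 at 3 days, and 2330 and 2363 against 1812 and 1763 at 6 days. The groups did not overlap in any of the 4. The log2 changes were −0.29 ± 0.046, −0.49 ± 0.046, −0.23 ± 0.036 and −0.39 ± 0.036, with adjusted p-values of 9.59e-07, 5.13e-18, 4.39e-06 and 1.7e-14 by the quasi-likelihood test of edgeR. Its partner RPL11 changed by −0.37, −0.43, −0.31 and −0.31.

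RPL24, which forms a bridge between the subunits, had 432 and 446 CPM in DMSO and 304 and 340 in STM2457 in 3-day Kelly cells, a log2 change of −0.45 ± 0.074. Its changes in the other 3 comparisons were −0.39 ± 0.073, −0.45 ± 0.067 and −0.27 ± 0.067. RPL23, another protein known to bind MDM2, fell by 0.35 and 0.58 on the log2 scale in Kelly cells (3 days, then 6) and by 0.26 and 0.37 in NGP. RPL24 lost its call in 6-day NGP cells without STM2457 replicate 2, and RPL23 in 3-day NGP cells without STM2457 replicate 1. RPS18, which sits in the head of the small subunit, changed by −0.36, −0.42, −0.33 and −0.40.

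The members RPLP0, RPS6, RPS27, RPSA and RPL22, followed in every comparison for their known roles, did not pass the threshold in 3-day Kelly cells. RPLP0, the stalk protein often used as a reference gene, changed by −0.06 in 3-day Kelly cells (adjusted p = 0.801), and fell by 0.16 in 6-day Kelly cells, 0.23 in 3-day NGP cells and 0.22 in 6-day NGP cells, where edgeR's test passed the threshold. RPS6, the S6 kinase substrate, stood at −0.14 (adjusted p = 0.227), −0.32, −0.26 and −0.28 in the same order. RPS27 stood at −0.20 (adjusted p = 0.217), −0.39, −0.25 and −0.22. RPSA, the laminin-binding protein, stood at −0.16, −0.13, −0.17 and −0.14, and only the 2 NGP values were past the threshold (adjusted p = 0.0184 and 0.0324). RPL22, which regulates the splicing of its own paralogue's mRNA, stood at −0.05, −0.14, −0.12 and −0.19, and only the last was past it (adjusted p = 0.0314). Several of these calls rest on single libraries. Those of RPSA were lost in 3 of 4 refits without 1 library in 3-day NGP cells and in 4 of 4 in 6-day NGP cells, and those of RPS27 in 3 and 2 of 4. In 3-day NGP cells RPS27 stood at −0.17 without DMSO replicate 2. Without DMSO replicate 2 in 6-day NGP cells RPLP0 stood at −0.11 and RPS27 at −0.14, both calls being lost. RPL22 stood there at −0.09 without STM2457 replicate 2 and −0.30 without STM2457 replicate 1, with the call gone in 2 of 4 refits. RPLP0 also lost its call in 6-day Kelly cells without DMSO replicate 1, while RPS6 lost none.

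RPL41, which encodes the smallest protein of the ribosome, went against the rest. It had 126 and 139 CPM in DMSO and 162 and 167 in STM2457 in 3-day Kelly cells, and at 6 days 127 and 124 against 150 and 132. In NGP it had 145 and 156 CPM against 189 and 169 at 3 days, and 185 and 172 against 183 and 189 at 6 days. STM2457 was higher without overlap in the first 3, and in 11 of 12 comparisons once those after actinomycin D are included, but no log2 change at 0 h (0.31, 0.17, 0.25 and 0.06) passed the threshold, with adjusted p-values of 0.0943, 0.57, 0.07 and 0.816 by edgeR's test. RPL41 lay above the member median by 0.50, 0.46, 0.48 and 0.31, more than 3 scaled MADs of the members in 3 of the 4, and no other member departed in this way. In libraries after actinomycin D it was higher past the threshold in 4 of 8 comparisons, by 0.52 ± 0.099 at 3 h and 0.40 ± 0.099 at 6 h in 3-day Kelly cells, 0.28 ± 0.098 at 6 h in 6-day Kelly cells and 0.24 ± 0.080 at 6 h in 3-day NGP cells. The first of these calls held without each library in turn. The other 3 were lost in 1, 4 and 3 of 4 refits without 1 library, in that order. The annotated exons of RPL41 cover 1108 bases, those of RPS7 5529 and those of RPS27 1028. The part of length in the result was not tested.

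**Figure D3:**
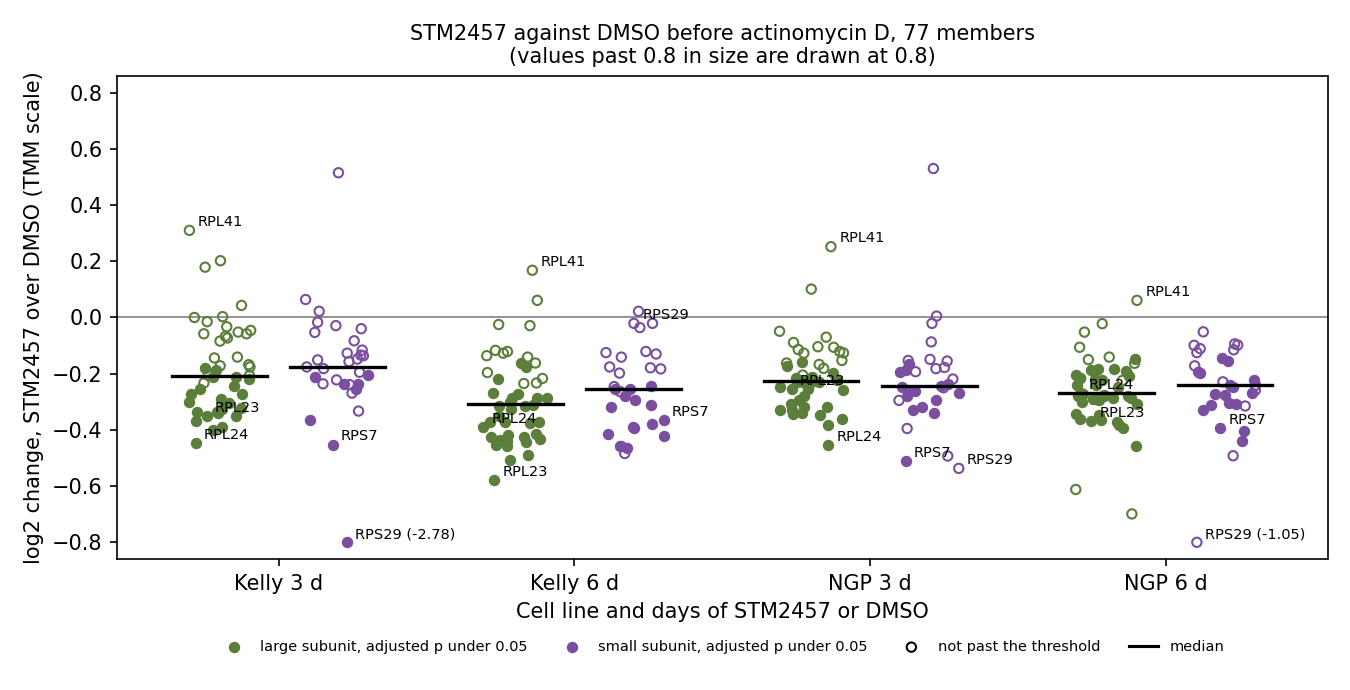
log2 change of each member, STM2457 over DMSO at 0 h on the TMM scale (y axis), per line and duration (x axis), large subunit left and small subunit right; filled points passed an adjusted p of 0.05 and bars are medians. The 8 medians lie between −0.31 and −0.18, RPL41 stands above 0 in every comparison, and RPS29 (−2.78 in 3-day Kelly cells) rests on 1 library.

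RPS29 is a case where 1 library made the value. This zinc-binding protein of the small subunit had 1130 and 81.3 CPM in the 2 DMSO libraries of 3-day Kelly cells, against 88.2 and 87.8 in STM2457. The fit gave −2.78 ± 0.314 (adjusted p = 7.34e-13 by edgeR's test), and 0.13 without DMSO replicate 1. Over all 48 libraries RPS29 ranged from 79.2 to 1382 CPM, and replicates differed as much in several other groups, such as 1099 and 116 CPM at 3 h in STM2457-treated Kelly cells at 6 days. Calls for RPS29 below are subject to this scatter, and the library behind a call is named only for some of them.

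Libraries after actinomycin D give the treatment comparison again in other samples. The labels do not say whether these share cultures with the 0 h samples, so they need not be independent repeats. At 3 h, 44, 60, 54 and 49 members were lower in Kelly cells (3 days, then 6) and in NGP cells (likewise), and 1 was higher in each. All genes were lower in 3.78%, 2.02%, 4.74% and 3.92% of cases and higher in 2.05%, 3.18%, 3.19% and 4.72%. At 6 h, 52, 70, 60 and 52 members were lower and 1, 3, 1 and 1 higher, beside 4.36%, 4.12%, 6.46% and 4.3% of all genes lower and 3.45%, 5.76%, 5.19% and 4.86% higher. Without STM2457 replicate 1 at 3 h, 29 members passed the threshold at 3 h in 3-day Kelly cells, and without DMSO replicate 2 at 3 h, 30 did so in 6-day NGP cells. The member medians at 6 h were −0.33, −0.49, −0.28 and −0.25. With ERCC scaling these 6 h medians were −0.33, −0.05, −0.04 and 0.14, and at 3 h 0.16, −0.18, −0.31 and −0.14, so the direction turned in 3-day Kelly cells (3 h) and in 6-day NGP cells (6 h). The members' median lay below that of all genes by 0.20 to 0.51 in all 8, a distance that rescaling nearly keeps by construction.

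Across all 12 comparisons of STM2457 and DMSO, 63 members lay below 0 in every one and 18 were lower past the threshold in every one. The shares of all genes that did so are not given here. These 18 were the 21 above without RPL32, RPL35A and RPS4X. RPS7 ranged from −0.65 to −0.31 over the 12, RPL5 from −0.82 to −0.23 and RPL7A from −0.71 to −0.27. The 3 members higher in at least 1 were RPL41, RPS29 and RPL36A. RPL36A was higher in 1 of the 12, at 6 h in 6-day Kelly cells (1.00 ± 0.340, adjusted p = 0.0394 by edgeR's test), a call lost without DMSO replicate 2 (0.77) or STM2457 replicate 2 (0.74). It was lower in another, at 3 h in 3-day NGP cells, with 2.82 and 3.77 CPM in DMSO against 0.721 and 0.927 in STM2457 (−1.99 ± 0.599, adjusted p = 0.0238 by edgeR's test), a call lost in 3 of 4 refits without 1 library.

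The second question was how the members held up once transcription was blocked. In DMSO they rose relative to the typical gene between 0 and 6 h of actinomycin D. Of the 77, 72, 72, 73 and 72 were higher and 3, 3, 2 and 3 lower in Kelly cells (3 days, then 6) and in NGP cells (likewise), beside 14.4%, 13.2%, 19% and 18% of all genes higher and 15.6%, 13.3%, 18.4% and 18.7% lower. The member medians were 0.82, 0.78, 0.81 and 0.75, and 0.59, 0.52, 0.48 and 0.53 after 3 h. The large subunit stood at 0.80, 0.72, 0.79 and 0.75 at 6 h and the small subunit at 0.85, 0.79, 0.83 and 0.75. Their share of all fragments in DMSO went from 5.32 to 8.13% in 3-day Kelly cells, from 6.40 to 9.56% at 6 days, from 4.84 to 7.01% in 3-day NGP cells and from 6.41 to 9.35% at 6 days.

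The sign of this change depended on the scaling as well. With ERCC scaling the 0 to 6 h medians in DMSO were 0.39, −0.50, 0.01 and −0.31, against −0.34, −1.18, −0.81 and −1.10 for all genes, so the direction turned in Kelly and NGP at 6 days, where 77 and 75 members were lower. The members lay above all genes by 0.73, 0.68, 0.82 and 0.79, a distance that rescaling nearly keeps by construction. When the spike-ins were added is not given in the sources used here.

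RPS7 had 1064 and 1092 CPM after 6 h in DMSO-treated Kelly cells at 3 days, against 653 and 745 at 0 h, a log2 change of 0.63 ± 0.061. Its changes in the other 3 were 0.53 ± 0.061, 0.63 ± 0.052 and 0.57 ± 0.052. The largest mean rises were in RPS15, RPS2, RPL36 and RPLP1. RPS15, at the decoding side of the small subunit, rose by 0.97 ± 0.065, 1.03 ± 0.065, 0.88 ± 0.060 and 0.87 ± 0.059; its CPM in 3-day Kelly cells went from 504 and 555 to 1052 and 1023. RPS2, which lines the mRNA entry of the small subunit, rose by 0.99 ± 0.046, 1.03 ± 0.046, 0.84 ± 0.058 and 0.84 ± 0.058. RPL5, by contrast, rose by 0.60 ± 0.046, 0.50 ± 0.046, 0.67 ± 0.037 and 0.49 ± 0.036. The largest of these adjusted p-values was 6.59e-14, for RPS7 in 6-day Kelly cells, by the quasi-likelihood test of edgeR.

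A few members did the opposite of the rest. RPL36A, whose protein lies near the exit site for tRNA, had 26.3 and 31.5 CPM at 0 h in DMSO-treated Kelly cells at 3 days and 7.49 and 8.01 after 6 h. Its log2 changes were −1.90 ± 0.342, −2.39 ± 0.346, −2.33 ± 0.576 and −2.30 ± 0.554, lower past the threshold in all 4. RPS10 stood at −0.90 ± 0.633, −3.02 ± 0.678, −1.13 ± 0.712 and −1.91 ± 0.726, past the threshold at 6 days in both lines. The call of RPS10 in 6-day NGP cells was lost without at least 1 library. RPL17 did not move with the rest, at 0.61 ± 0.311, −0.15 ± 0.310, 0.06 ± 0.326 and −0.24 ± 0.322, none past the threshold. These 3 are among the least counted members: RPL36A had 13 to 249 fragments per NGP library, RPS10 12 to 142 and RPL17 100 to 399. Their overlap with neighbouring genes was given above, and its part in the result was not tested.

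In STM2457 the members also rose, with medians of 0.72, 0.59, 0.76 and 0.77 from 0 to 6 h and 72, 71, 72 and 73 members higher (all genes: 12.8%, 12.4%, 16.6% and 15.7%). With ERCC scaling these medians were −0.13, 0.01, 0.11 and 0.15.

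**Figure D4:**
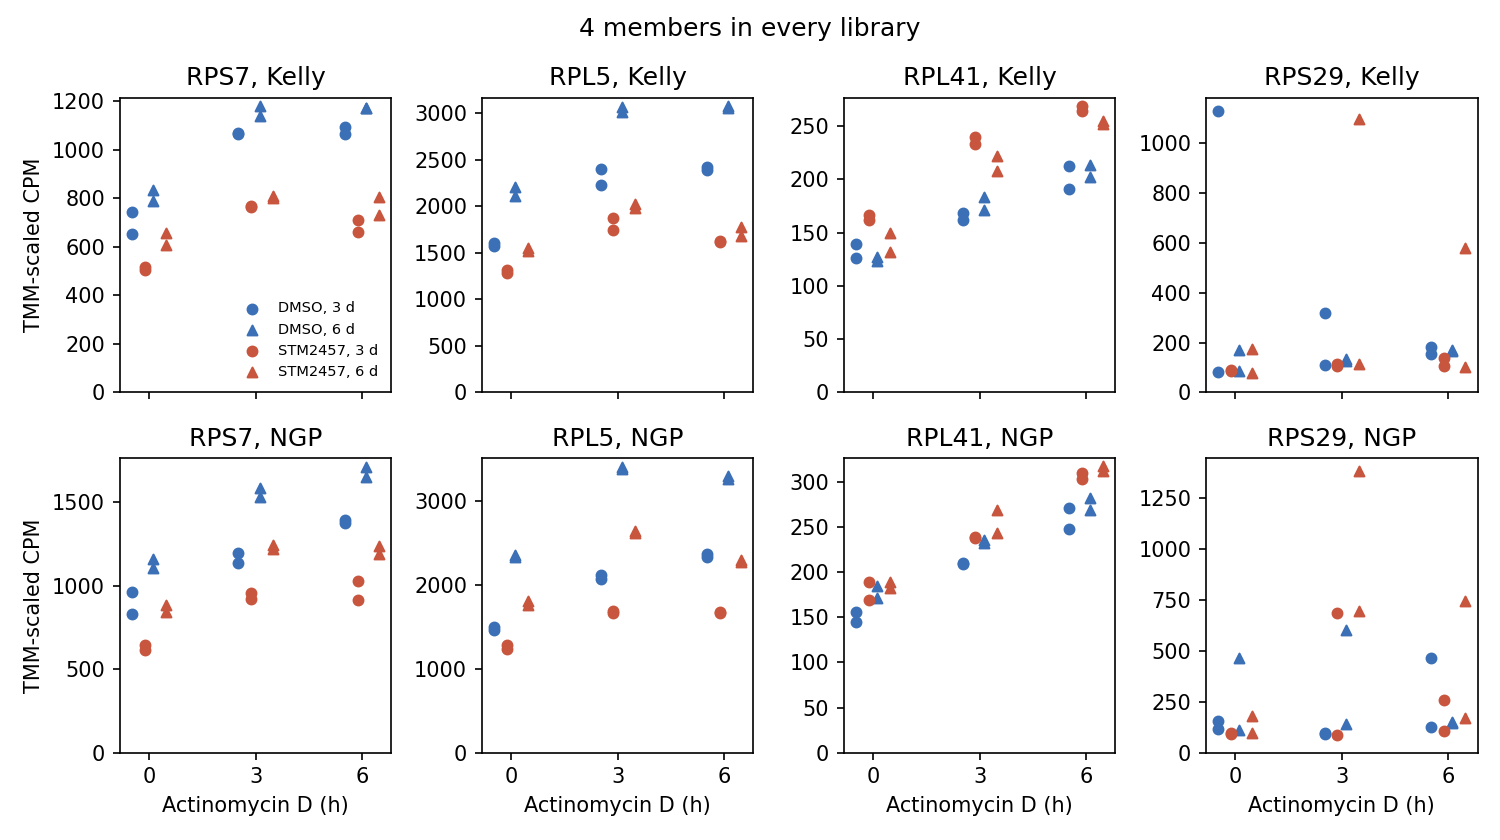
TMM-scaled CPM (y axis) of RPS7, RPL5, RPL41 and RPS29 in every library of Kelly (top) and NGP (bottom) by hours of actinomycin D (x axis); blue is DMSO, red STM2457, circles 3 days and triangles 6 days. RPS7 and RPL5 lie lower with STM2457 at every hour, RPL41 lies higher without overlap in 11 of 12 comparisons, and RPS29 scatters between replicates.

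The decay difference, the 0 to 6 h change in STM2457 minus that in DMSO, asks whether these mRNAs held up less well with the inhibitor. Few members passed the threshold. In 3-day Kelly cells 1 was higher and 1 lower, beside 0.197% of all genes higher and 0.0239% lower; in 6-day Kelly cells 0 were higher and 8 lower (all genes 0.149% and 0.274%). In NGP 0 were higher and 2 lower at 3 days (0.457% and 0.246%), and 1 higher and 1 lower at 6 days (1.36% and 1.18%). Member medians were −0.11 and −0.19 in Kelly and −0.05 and 0.00 in NGP. Of the 77, 70 and 69 lay below 0 in Kelly cells (3 days, then 6) and 49 and 38 in NGP cells. The median of all genes was 0.021, 0.006, −0.001 and −0.020 in that order. An unadjusted p under 0.05 by edgeR's test was found for 19, 42, 12 and 6 members. The share of all genes at that unadjusted threshold is not given here, so these counts are not read as an excess. After 3 h of actinomycin D the members differed in 3-day Kelly cells alone with RPS2 lower (−0.31 ± 0.065, adjusted p = 0.01 by edgeR's test), RPS29 being the other call there and in 6-day Kelly cells; all genes passed the threshold in 0.0955%, 0.0358%, 0.0205% and 0.075% of cases at 3 h. With ERCC scaling the 6 h medians were −0.51, 0.51, 0.09 and 0.43, against −0.37, 0.70, 0.14 and 0.41 for all genes. The member median thus lay below 0 under both scalings in 3-day Kelly cells and changed sign in 6-day Kelly cells and 3-day NGP cells. By ERCC scaling 1, 71, 4 and 70 members were higher and 72, 0, 0 and 0 lower. The shares of all genes called with it are not given here.

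The 8 lower members in 6-day Kelly cells were RPL5, RPL8, RPL15, RPL34, RPLP1, RPS2, RPS27A and RPSA. RPS27A, which is made as a fusion with ubiquitin, rose by 0.87 ± 0.065 over 6 h in DMSO and by 0.37 ± 0.065 in STM2457, a difference of −0.50 ± 0.092 (adjusted p = 1.58e-04 by edgeR's test). RPS2 had 1912 and 1854 CPM at 0 h and 3821 and 3842 at 6 h in DMSO, against 1947 and 1765 and then 2774 and 2838 in STM2457. STM2457 and DMSO overlapped at 0 h and separated at 6 h, a difference of −0.43 ± 0.065 (adjusted p = 6.68e-07 by edgeR's test). RPLP1, a stalk protein, differed by −0.37 ± 0.072 (adjusted p = 4.72e-04 by edgeR's test). The same 3 genes in 6-day NGP cells stood at 0.11 ± 0.086, −0.01 ± 0.082 and −0.03 ± 0.074, none past the threshold; the difference between the lines was not tested. The count of 8 in 6-day Kelly cells was 5 without DMSO replicate 1 at 0 h, 4 without STM2457 replicate 1 at 0 h and 17 without STM2457 replicate 1 at 6 h. In 3-day Kelly cells the 2 calls became 0 without DMSO replicate 1 at 0 h, and 1 without STM2457 replicate 1 at 0 h, DMSO replicate 1 at 6 h or STM2457 replicate 1 at 6 h. In 3-day NGP cells the 2 calls became 1 without either DMSO replicate at 0 h or STM2457 replicate 1 at 6 h, and 3, of which 2 higher, without DMSO replicate 1 at 6 h. In 6-day NGP cells the 2 became 1 without DMSO replicate 1 at 0 h or DMSO replicate 2 at 6 h.

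RPL5 was the member that recurred, with decay differences of −0.28 ± 0.065 and −0.33 ± 0.065 in Kelly cells (3 days, then 6) and −0.27 ± 0.051 and −0.13 ± 0.051 in NGP. The first 3 passed the threshold (adjusted p = 0.0175, 4.86e-04 and 1.12e-03 by edgeR's test) and the last did not (0.246). The 3-day Kelly call was lost in 7 of 8 refits without 1 library. RPL23 differed in 3-day NGP cells (−0.28 ± 0.073, adjusted p = 0.0435 by edgeR's test, lost in 7 of 8 refits) and RPL7A in 6-day NGP cells (−0.26 ± 0.064, adjusted p = 8.31e-03, lost in 2 of 8). The higher calls in 3-day Kelly cells and NGP at 6 days were both RPS29. The first, 2.32 ± 0.425, was −0.58 without DMSO replicate 1 at 0 h. The second ran from 1.26 to 3.38 when each library was left out. Its replicates had 2035 and 7317 fragments in DMSO at 0 h, and 12044 and 1824 in STM2457 at 6 h.

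**Figure D5:**
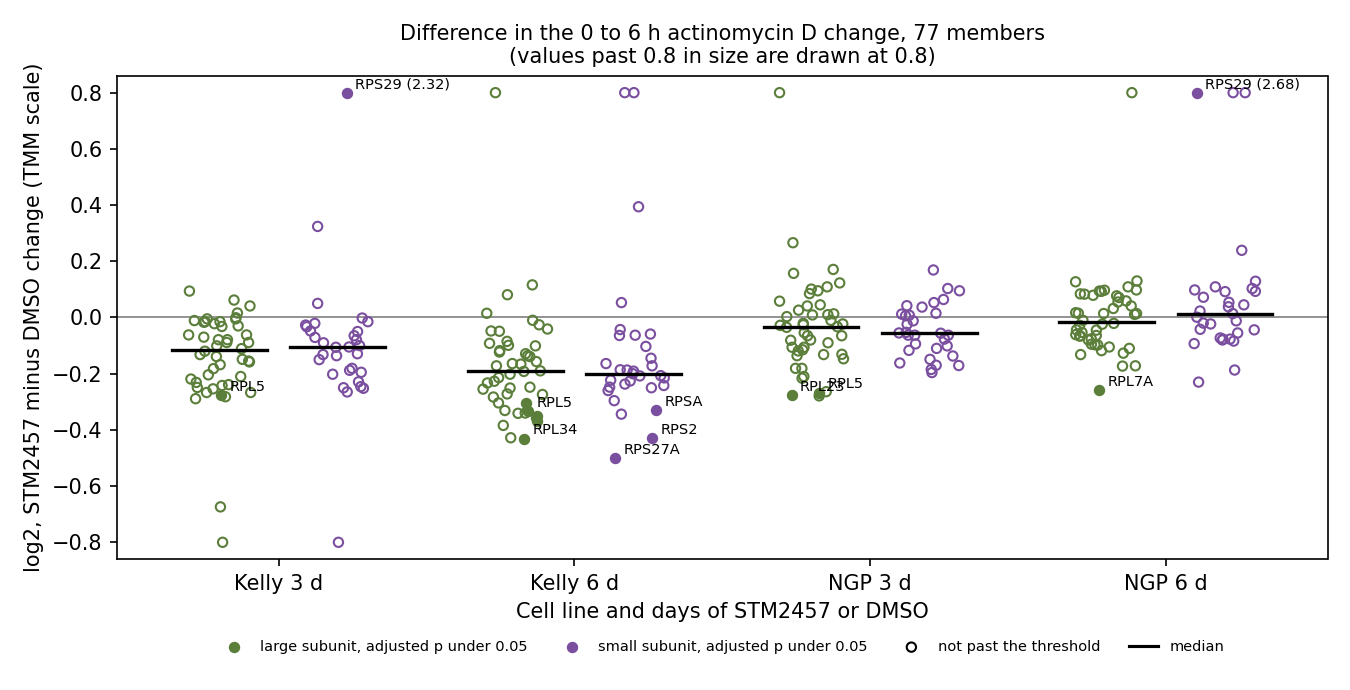
Difference in the 0 to 6 h change under actinomycin D, STM2457 minus DMSO, per member on the TMM scale (y axis), per line and duration (x axis), large subunit left and small subunit right; filled points passed an adjusted p of 0.05, bars are medians and values past 0.8 in size are drawn at 0.8. Over both subunits, filled points below 0 number 1 and 8 in Kelly cells (3 days, then 6) and 2 and 1 in NGP cells.

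The effect at 0 h was also compared between durations and lines. Between 6 and 3 days the effect differed for 2 members in Kelly, RPL4 lower and RPS29 higher, beside 0.107% of all genes lower and 0.68% higher, and for 0 members in NGP, where 8 had an unadjusted p under 0.05 by edgeR's test and 2 were called by DESeq2 (all genes 2.8%). Between NGP and Kelly, 0 members differed at 3 days (9 with an unadjusted p under 0.05 by edgeR's test, 0 called by DESeq2; all genes 0.161%), and at 6 days 3 were less reduced in NGP, RPL19 and RPL7A among them, beside 0.692% of all genes higher and 1.06% lower. DMSO cells themselves changed with time in a comparison added after seeing the data: at 0 h, 35 members were higher and 2 lower at 6 than at 3 days in Kelly (all genes 2.78% and 5.74%), and 70 higher and 0 lower in NGP (5.37% and 6.72%), with medians of 0.19 and 0.38. With ERCC scaling those medians were 0.57 and 0.20.

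Genes around the ribosomal proteins moved in part. Of 20 other TOP and translation factor genes, 19 were tested. In the 4 comparisons at 0 h 5, 13, 8 and 7 were lower, beside 1.1%, 1.26%, 2.45% and 3.55% of all genes. In 6-day Kelly cells 1 was higher, beside 2.7% of all genes. The list's medians were −0.14, −0.28, −0.14 and −0.09, and with ERCC scaling 11 were higher and 0 lower in 3-day Kelly cells. RACK1, the scaffold protein of the small subunit, was lower in all 4 (−0.28 ± 0.053, −0.35 ± 0.053, −0.22 ± 0.048 and −0.40 ± 0.048), as was NACA, the nascent-chain binding protein (−0.25 ± 0.061, −0.45 ± 0.061, −0.31 ± 0.044 and −0.36 ± 0.044). NPM1, the nucleolar assembly factor, was lower in 3, by −0.34 ± 0.044, −0.28 ± 0.044 and −0.45 ± 0.037, and stood at −0.07 ± 0.037 in 6-day NGP cells. With ERCC scaling RACK1, NACA and NPM1 stood at 0.13, 0.15 and 0.06 in 3-day Kelly cells, beside 0.38 for all genes. The call of NACA in 3-day Kelly cells was lost without DMSO replicate 1, DMSO replicate 2 or STM2457 replicate 1, and that of RACK1 in 3-day NGP cells without DMSO replicate 2. After 6 h of actinomycin D in DMSO 17 of the 19 were higher in each comparison, with medians of 0.67, 0.54, 0.63 and 0.53. Of all genes 14.4%, 13.2%, 19% and 18% were higher there. In the promoter windows, 13 of 14 of these genes with sequence had the pyrimidine run.

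The mitochondrial ribosomal protein genes gave no lower calls at 0 h. Of 78, 77 were tested in each line. At 0 h 0 were lower in any of the 4 comparisons, and 1, 5, 0 and 6 were higher, with medians of −0.03, 0.02, 0.01 and 0.09. All genes were lower in 1.1%, 1.26%, 2.45% and 3.55% of cases and higher in 0.579%, 2.7%, 1.25% and 4.45%. At these shares few of 77 genes would be lower. Lower ones with an unadjusted p under 0.05 by edgeR numbered 2, 2, 2 and 1, and DESeq2 called 1, 1, 0 and 0 lower. With ERCC scaling 20 were higher in 3-day Kelly cells and 2 lower at 6 days. Between 0 and 6 h of actinomycin D in DMSO 10, 9, 10 and 9 of them were higher and 24, 20, 24 and 28 lower. All genes were higher in 14.4%, 13.2%, 19% and 18% of cases there and lower in 15.6%, 13.3%, 18.4% and 18.7%. The difference between this list and the members was not tested as such.

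Among 12 regulators of ribosomal protein mRNAs, 1 was higher and 0 lower in 3-day Kelly cells and at 6 days, 1 was lower in 3-day NGP cells, and 1 was higher and 3 lower in 6-day NGP cells. The higher one was EIF4EBP2, a repressor of cap-dependent translation, at 0.36 ± 0.089, 0.43 ± 0.089 and 0.27 ± 0.073, and 0.17 ± 0.073 in 3-day NGP cells (adjusted p = 0.229 by edgeR's test). Its paralogue EIF4EBP1 went the other way in 6-day NGP cells, though not in 3-day NGP cells. At 6 days it had 5185 and 4563 fragments in DMSO and 3447 and 2575 in STM2457. LARP1, the TOP-binding repressor, stood at −0.08, 0.06, −0.01 and −0.17, past the threshold in 6-day NGP cells, and not without any 1 of the 4 libraries. Each of the 3 EIF4EBP2 calls was lost without at least 1 library. Of 13 chaperones and importins of ribosomal proteins, edgeR and DESeq2 each called 0 lower and 0, 1, 1 and 1 higher (edgeR, unadjusted p under 0.05: 0, 0, 1 and 1 lower). At 0 h all genes were lower in 1.1%, 1.26%, 2.45% and 3.55% of cases and higher in 0.579%, 2.7%, 1.25% and 4.45%. At these shares 0 or 1 call among 12 or 13 genes is not read as a result about either list. Among the paralogues outside the name rule, of which 9 were tested in Kelly and 8 in NGP, RPL36AL was higher in 3-day Kelly cells (0.45 ± 0.120, lost in 3 of 4 refits without 1 library) and in 6-day NGP cells (1.06 ± 0.10, adjusted p = 4.01e-14 by edgeR's test). RPL22L1, the paralogue of RPL22, stood at −0.44, −0.22, −0.50 and −0.92, none of them past the threshold.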

How the data were processed

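Poly(A) RNA-seq was measured in 48 libraries, 24 per line, in 24 groups of 2 taken from the labels. The authors deposited unnormalised counts of fragments for each gene name, made with featureCounts 1.5.3 over GENCODE 33 protein-coding exons and 92 ERCC sequences, per the file headers. FastQC 0.11.5, Trimmomatic 0.36, HISAT2 2.1.0, Subread 1.5.3 and hg38 are named in the submitters' processing notes. The strand and multimapping settings are not given in the sources used here.

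Genes were kept by filterByExpr (minimum count 10, minimum total 15). TMM-scaled counts were tested with edgeR 4.0.16 (R 4.3.3), glmQLFit and glmQLFTest, on the 24 libraries and 12 groups of each line together, so that the spread is shared, and on all 48 for differences between lines; p-values are two-sided and Benjamini-Hochberg adjusted over all genes tested, with a threshold of 0.05. A standard error is the log2 change over the square root of F. The fit was tested on simulated data. CPM are on the TMM scale. Where a library is left out, its group keeps 1 library, assumed to vary like the other groups. Alternatives were RLE, library size and ERCC scaling, TMM without the members, no filter, DESeq2 1.42.0, limma-voom 3.58.1, libraries of the same duration, a replicate block, removal of the length trend and each library left out. For the counts at 3 and 6 h of actinomycin D and for the change in STM2457 these were chosen after seeing the data.

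Genes named were RPS7, RPL22, RPS27, RPLP0, RPSA and RPS6; members past the threshold with 1 sign in all 4 comparisons at 0 h; the 4 highest and 4 lowest mean changes for STM2457 at 0 h and for actinomycin D in DMSO; the 3 smallest p-values among called members for each difference; members more than 3 scaled MADs from the member median in at least 2 comparisons and on 1 side in all 4; and up to 3 called genes per other list and comparison. RPL15, RPL34, RPL8 (for its decay difference), RPL13A, LARP1 and RPL22L1 were named after their values were seen, as were the minimum length of the pyrimidine run, the limit of 100 fragments, the comparison of DMSO at 6 and 3 days, and which of the genes the rule gives are printed. The members and lists were chosen with earlier results of these data known. A few members that the rule names are not reported here singly, and stay in all counts and medians.

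The 2 libraries of a group differed by more than sampling noise in all 24 groups (chi-square per degree of freedom 6.66 to 19.7), so none was counted as a copy.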

Additional observations from a re-analysis of the deposited data

Results flagged for a closer look

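The STM2457 effect at 0 h differed between durations or lines in 5 tests on members, 4 of which are given here, by edgeR's quasi-likelihood test of the difference with Benjamini-Hochberg adjustment over all genes. In Kelly, RPL4, a large-subunit protein at the exit tunnel, had an effect of −0.06 at 3 days and −0.32 at 6 days on the log2 scale, a difference of −0.26 ± 0.067 (SE; adjusted p = 0.0245). That call was lost without STM2457 replicate 2 at 3 days, DMSO replicate 1 at 6 days or STM2457 replicate 2 at 6 days. RPS29 differed by 2.76 ± 0.427 in Kelly (adjusted p = 8.1e-07), from −2.78 at 3 days to −0.02 at 6 days, and by −0.17 without DMSO replicate 1 at 3 days. The number of members past the threshold in this comparison ran from 1 to 4 when each library was left out.

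At 6 days RPL19 and RPL7A were less reduced in NGP than in Kelly. RPL19 changed by −0.46 in Kelly and −0.21 in NGP, a difference of 0.26 ± 0.066 (adjusted p = 0.0143 by edgeR's test). RPL7A changed by −0.51 and −0.30, a difference of 0.23 ± 0.066 (adjusted p = 0.0472 by edgeR's test). These calls were lost in 4 and 6 of 8 refits without 1 library, and both were lost when the trend of counts on gene length was removed (0.21 and 0.20).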

How the results depend on the processing

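Counts below are members past the threshold in either direction, in the order Kelly 3 and 6 days, NGP 3 and 6 days unless stated. ERCC scaling, which counts RNA per spike-in, moved most. It gave 44 (43 higher) in 3-day Kelly cells and 16 in 3-day NGP cells for STM2457 at 0 h; at 3 h 36 (all higher) and 37 in Kelly cells (3 days, then 6) and 26 in 6-day NGP cells; at 6 h 29 in 6-day Kelly cells (15 higher), 12 in 3-day NGP cells and 34 in 6-day NGP cells (32 higher). For 0 to 6 h of actinomycin D in DMSO it gave 77 in 6-day Kelly cells, all lower. It also gave 11 in 3-day NGP cells (10 lower) and 75 in 6-day NGP cells (all lower). In STM2457 it gave 31, 30, 31 and 43, of which 0, 11, 24 and 37 higher. For the decay difference it gave 73 (72 lower), 71 (all higher), 4 (all higher) and 70 (all higher). For durations it gave 73 in Kelly (72 lower) and 5 in NGP (all lower). For lines it gave 41 at 3 days (all lower) and 28 at 6 days (all higher). Medians that turned were 0.21 (0 h) and 0.16 (3 h) in 3-day Kelly cells, 0.14 (6 h) in 6-day NGP cells, −0.50 and −0.31 (actinomycin D in DMSO, Kelly and NGP 6 days), −0.13 (in STM2457, Kelly 3 days) and, for the decay difference, 0.51 in 6-day Kelly cells and 0.09 in 3-day NGP cells (0.01 by library size); the 6-day NGP median, 0.00 with TMM, took either sign.

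Single genes turned as well. At 0 h in 3-day Kelly cells ERCC scaling gave RPL11 0.031, RPL12 0.18, RPL19 0.076, RPL23 0.048, RPL23A 0.21, RPL27 0.15, RPL3 0.061, RPL32 0.16, RPL35A 0.063, RPL5 0.11, RPL6 0.062, RPL7 0.13, RPL7A 0.10, RPL8 0.13, RPS15 0.15, RPS18 0.036, RPS3 0.16, RPS4X 0.19, RACK1 0.13, NACA 0.15 and NPM1 0.06. For actinomycin D in DMSO it gave RPL36 −0.25, RPL5 −0.77, RPLP1 −0.25, RPS15 −0.24, RPS2 −0.25 and RPS7 −0.75 in 6-day Kelly cells; RPL5 −0.13 and RPS7 −0.18 in 3-day NGP cells; and RPL36 −0.22, RPL5 −0.57, RPLP1 −0.21, RPS15 −0.18, RPS2 −0.22 and RPS7 −0.49 in 6-day NGP cells. Decay differences became 0.37 for RPL5, 0.33 for RPLP1, 0.27 for RPS2 and 0.20 for RPS27A in 6-day Kelly cells and 0.17 for RPL7A in 6-day NGP cells. Without each library in turn RPS29 ran from −3.68 to 0.13 for the effect, −2.75 to 1.06 for actinomycin D, −0.58 to 3.22 for the decay difference and −0.17 to 3.63 for durations in Kelly, the turned value of each being that without DMSO replicate 1 at 3 days and 0 h. For actinomycin D in 3-day NGP cells it ran from −0.16 (without DMSO replicate 1 at 6 h) to 1.77.

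Scaling by library size alone gave 29 at 3 h in 3-day Kelly cells, decay differences in 1, 5 and 3 (2 higher) in Kelly cells (3 days, then 6) and in 3-day NGP cells, and 5 and 1 for durations in Kelly and NGP. Limma-voom gave 1 for the decay difference in Kelly and in 3-day NGP cells and 1 for durations in each line. DESeq2 gave 15 for the decay difference in 6-day Kelly cells, 9 and 2 for durations and 5 for lines at 6 days. Removing the length trend gave 5 (decay difference, Kelly 3 days), 1 (durations, NGP) and 0 (lines, 6 days; 12 with an unadjusted p under 0.05 by edgeR). RLE scaling gave 1, no filter 1 and libraries of the same duration 1 for the decay difference in 3-day NGP cells; no filter also gave 1 for durations in NGP and 2 for lines at 3 days, and libraries of the same duration 1 for the decay difference in 3-day Kelly cells and for lines at 6 days. Replicate numbers did not pair the libraries (correlations of −0.0444 to 0.0297, 0 of 66 group pairs per line over 0.1); with a replicate block the durations in NGP gave 1, no other count moved by over 1.5 times and no gene call was lost.

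Without each library in turn the counts ran from 17 to 22, 41 to 47, 28 to 40 and 38 to 53 at 0 h; 29 to 44, 51 to 57, 43 to 59 and 30 to 45 at 3 h; 39 to 52, 63 to 69, 47 to 56 and 40 to 56 at 6 h; 74 to 75, 75 to 76, 74 to 75 and 75 to 76 for actinomycin D in DMSO; 72 to 76, 69 to 70, 73 to 74 and 73 to 74 in STM2457; 0 to 2, 4 to 17, 1 to 3 and 1 to 3 for the decay difference; 1 to 4 and 0 to 3 for durations in Kelly and NGP; and 0 to 2 and 1 to 2 for lines at 3 and 6 days. TMM without the members moved no count by over 1.5 times and no gene call was lost with it. The cause of these changes was not tested. With 2 libraries per group and 12 to 142 fragments of RPS10 in an NGP library, changes of the least counted members are imprecise.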
